A study of Mus musculus with 12 samples.

Results

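The genes described here are 10 carboxylesterases of the mouse, Ces1b, Ces1c, Ces1d, Ces1e, Ces1f, Ces1g, Ces2a, Ces2e, Ces3a and Ces3b. They were taken by symbol from the 36528 gene IDs of the series' count table, and all 10 had counts and entered the test. A further 10 genes of the family, also taken by symbol, are given beside them. RNA was sequenced from whole liver of 12 mice. In 6 of them carbon tetrachloride (CCl4) had been injected into the peritoneum 3 times per week for 6 weeks, and the other 6 had received corn oil on that schedule. The labels used here give no strain, age, sex, genotype or dose. CCl4 is made toxic by P450 enzymes inside hepatocytes, and repeated doses are widely used to produce liver fibrosis in mice. The comparison therefore asks which carboxylesterase transcripts change under repeated chemical injury.

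Carboxylesterases are serine hydrolases that split esters, amides and thioesters. Most sit in the lumen of the endoplasmic reticulum, where they cleave ester drugs and pesticides and also the body's own triglycerides, cholesteryl esters and retinyl esters. Hepatocytes are their richest source, and rodents carry many tandem copies of genes that are few in humans.

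All 20 family genes lie on chromosome 8 (RefSeq, build GRCm38.p6), in 2 clusters. The Ces1 genes run along the minus strand between 93020214 and 93379777, with Ces5a beyond them, and the Ces2, Ces3 and Ces4a genes run along the plus strand between 104734003 and 105150109. As near copies may share reads, the coding sequences of their longest GENCODE coding transcripts were compared. Ces3a and Ces3b were 95.3% identical, with 81 differing bases and an identical run of 194 bases. Ces1b and Ces1c were 91.2% identical, with 147 differing bases and an identical run of up to 118 bases. Ces2a was 83.3% identical to Ces2e, and the other pairs within the Ces1 subfamily of the 10 lay between 74.5% and 81.6%. Of all words of 50 bases in the transcript, 30.8% of those of Ces3a and 26.1% of those of Ces3b also occurred elsewhere in the family, against 10.8% for Ces1b and 13.4% for Ces1c and at most 3.36% for the other 6 genes. Most words of each transcript were thus found in no other family gene, least so for the Ces3 pair. How the authors counted reads that match several genes is not given in the sources used here. The 60 coding bases in which each close pair differed most are shown because they are where the 2 copies are told apart most easily. Capitals mark the bases that differ, and positions count from the A of the start codon, 758 to 817 for the Ces3 pair and 275 to 334 for Ces1b and Ces1c.
Ces3a: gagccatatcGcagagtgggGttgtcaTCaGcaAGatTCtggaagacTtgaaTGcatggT
Ces3b: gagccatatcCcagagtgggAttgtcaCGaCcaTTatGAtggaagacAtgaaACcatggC
Ces1b: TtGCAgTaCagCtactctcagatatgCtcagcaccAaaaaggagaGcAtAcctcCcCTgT
Ces1c: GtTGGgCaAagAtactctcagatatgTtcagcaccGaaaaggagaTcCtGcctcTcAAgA

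Upstream sequence was at hand for 7 of the 10 genes in the RefSeq promoter table for GRCm38.p6. The windows of Ces2a and Ces2e are printed because these genes, neighbours by name among the 10, moved in opposite directions. Those of Ces1b and Ces1c are printed because these near copies resemble each other upstream as well. Each runs 5′ to 3′ on the gene's strand up to the base before the annotated start, and capitals mark matches, on either strand, to the motifs named after the sequences.
Ces2a (chr8:104733753-104734002, plus strand): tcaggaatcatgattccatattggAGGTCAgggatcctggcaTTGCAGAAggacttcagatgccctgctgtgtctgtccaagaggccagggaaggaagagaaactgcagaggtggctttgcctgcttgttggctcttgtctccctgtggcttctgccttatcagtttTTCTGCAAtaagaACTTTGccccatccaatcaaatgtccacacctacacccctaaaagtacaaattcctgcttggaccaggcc
Ces2e (chr8:104926010-104926259, plus strand): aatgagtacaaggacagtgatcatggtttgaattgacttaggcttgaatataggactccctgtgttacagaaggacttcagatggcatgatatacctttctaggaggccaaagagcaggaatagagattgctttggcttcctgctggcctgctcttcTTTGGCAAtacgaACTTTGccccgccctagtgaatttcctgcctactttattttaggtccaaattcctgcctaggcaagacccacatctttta
Ces1b (chr8:93080018-93080267, minus strand): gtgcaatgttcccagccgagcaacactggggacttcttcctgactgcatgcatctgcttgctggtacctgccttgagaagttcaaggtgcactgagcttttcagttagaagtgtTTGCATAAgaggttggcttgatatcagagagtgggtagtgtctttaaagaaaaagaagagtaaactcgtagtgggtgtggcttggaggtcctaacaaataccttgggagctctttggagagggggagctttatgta
Ces1c (chr8:93131284-93131533, minus strand): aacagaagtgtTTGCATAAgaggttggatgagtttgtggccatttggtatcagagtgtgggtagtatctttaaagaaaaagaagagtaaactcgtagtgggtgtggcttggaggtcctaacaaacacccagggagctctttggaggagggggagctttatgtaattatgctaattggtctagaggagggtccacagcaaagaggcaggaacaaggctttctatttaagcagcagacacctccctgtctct
The motifs reported here were CAAAGT for HNF4, AGGTCA for nuclear receptors, TTGCNNAA for C/EBP, TTCNNNGAA for STAT5 and TATAAA for the TATA box. The windows of Ces2a and Ces2e aligned over 216 bases with 69.9% identity, and both held an HNF4 match, written ACTTTG on this strand, which began 70 bases before the start of Ces2a and 80 before that of Ces2e. A C/EBP match stood just upstream of it in each, at 83 and 93 bases, and no match overlapped another. Ces2a alone of the pair had a nuclear receptor match and a further C/EBP match, at 226 and 208 bases before its start. Among 32851 promoter windows of 250 bases, 12.6% held the HNF4 letters, 9.56% the C/EBP letters, 14.0% the nuclear receptor letters, 7.02% those for STAT5 and 12.4% the TATA box. Ces1b and Ces1c aligned over 147 bases with 93.2% identity and shared the C/EBP match TTGCATAA, at 136 and 239 bases before their annotated starts. These are matches of letters, not measured binding.

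Most of the carboxylesterases were lower in CCl4 livers. Of the 10 genes, 7 fell (Ces1d, Ces1e, Ces1f, Ces1g, Ces2a, Ces3a and Ces3b), 1 rose (Ces2e) and 2 did not pass (Ces1b and Ces1c), by edgeR's quasi-likelihood test over 16032 genes at an adjusted p of 0.05. Over all tested genes 39.0% were called, of which the falls made up 18.4% and the rises 20.6% of the genes tested. Rises made up 52.8% of all calls, and 67.3% with upper-quartile scaling, which gave the same counts for the 10 genes. The median log2 fold change, CCl4 over oil, was -1.16 for the 10 genes and 0.01 for all tested genes. For 6 of the 10 every CCl4 liver lay below every oil liver, which held for 8.03% of all tested genes, and for Ces2e every CCl4 liver lay above, which held for 12% (together 20% of the genes tested). In whole liver, fewer cells of a type and less RNA per cell cannot be told apart. Levels are given as CPM, counts per 1000000 after scaling by TMM (trimmed mean of M values), with SD over 6 livers, and a ± after a log2 fold change is its standard error.

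**Figure D1:**
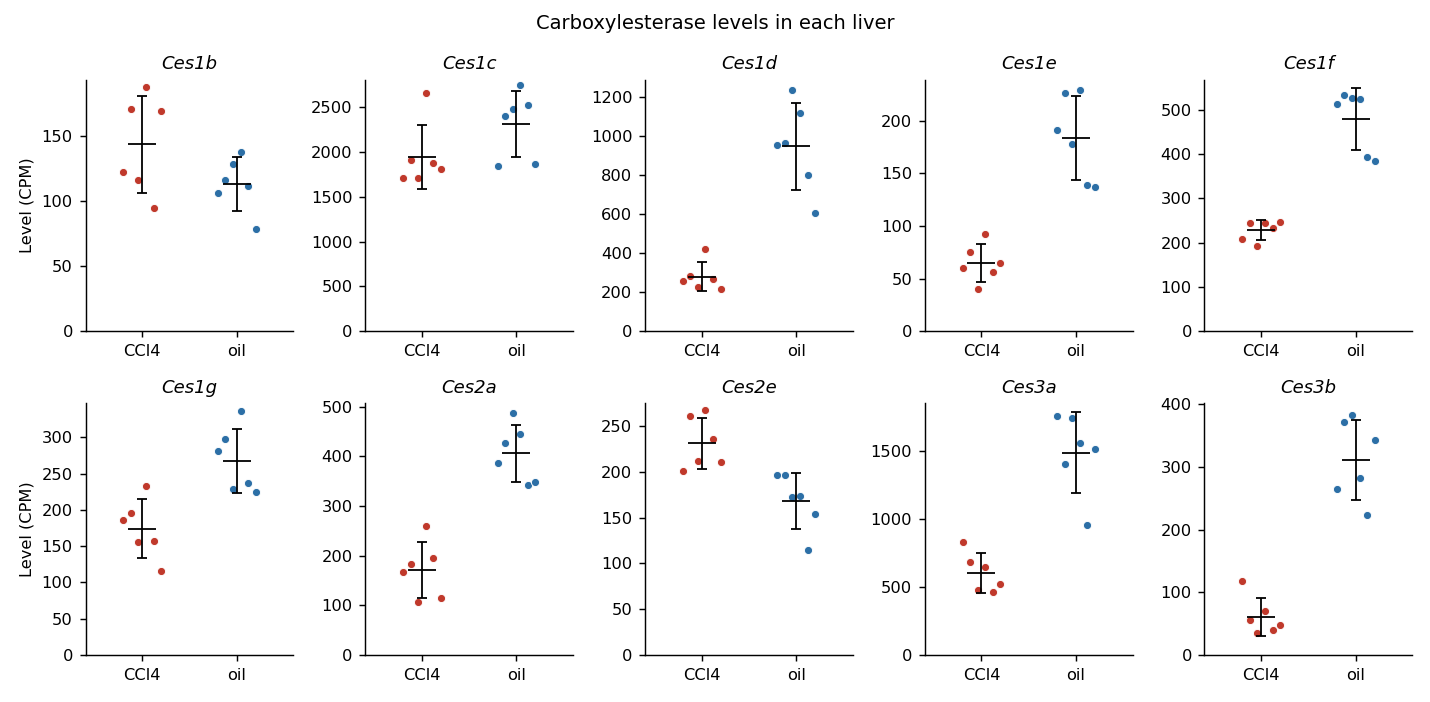
Level of each of the 10 carboxylesterases in CPM (y axis, from 0) in 6 CCl4 livers (left, red) and 6 oil livers (right, blue); each point is a liver, and bars give the mean ± SD. The groups do not overlap for 7 genes, of which Ces2e alone is higher in CCl4, and overlap for Ces1b, Ces1c and Ces1g.

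Ces1d (gene ID 104158, 93166072 to 93197804, 14 exons) is the triacylglycerol hydrolase that releases stored triglyceride for export in very low density lipoprotein. Its lowest, median and highest levels were 215, 263 and 422 CPM in CCl4 livers, against 606, 957 and 1234 CPM in oil livers. The highest CCl4 liver was thus below the lowest oil liver. Ces1d averaged 278 ± 75.0 CPM in CCl4 livers and 945 ± 224 CPM in oil livers, a 3.40-fold lower level (log2 fold change -1.76 ± 0.20, adjusted p = 1.34e-05). Fat cells also express this gene. The fat cell markers Adipoq, Plin1 and Retn did not exceed 0.144 CPM in any CCl4 liver or 0.416 CPM in any oil liver, and Lep had no count. The fifth marker, Adrb3, ran from 0.769 to 4.64 CPM in CCl4 livers and from 2.76 to 12.3 CPM in oil livers and fell (adjusted p = 0.00236). Its part in the fall of Ces1d was not tested.

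Ces1e (gene ID 13897, 93201218 to 93229631, 14 exons), known as egasyn, holds beta-glucuronidase in the endoplasmic reticulum. It was measured at 40.0 CPM in the lowest, 62.7 in the median and 92.3 in the highest CCl4 liver, against 137, 184 and 229 CPM in oil livers. The groups did not overlap, and the level was 2.83-fold lower after CCl4 (log2 fold change -1.50 ± 0.20, adjusted p = 5.16e-05).

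Ces1f (gene ID 234564, 93256236 to 93279766, 14 exons) encodes another triglyceride hydrolase of the liver. CCl4 livers were tightly grouped, with 191, 237 and 247 CPM as lowest, median and highest, against 384, 518 and 533 CPM in oil livers. No CCl4 liver reached an oil liver, and the gene was 2.10-fold lower (log2 fold change -1.07 ± 0.13, adjusted p = 1.78e-05). Its coefficient of variation over CCl4 livers, 10.1%, was the smallest of the 10 genes in that group.

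Ces1g (gene ID 12623, 93302369 to 93337209, 14 exons) restrains lipid synthesis and lipoprotein output in the mouse liver. Levels were 115, 172 and 233 CPM in CCl4 livers and 225, 259 and 336 CPM in oil livers (lowest, median and highest). Here 5 of 6 CCl4 livers lay below all oil livers, and CCl4 replicate 4 reached into their range. The fall was the smallest of the 7, 1.54-fold (log2 fold change -0.62 ± 0.17, adjusted p = 0.00973).

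Ces1c (gene ID 13884, 93099015 to 93131283, 13 exons) encodes the esterase that mouse liver secretes into plasma. It had 1703, 1839 and 2651 CPM as lowest, median and highest level in CCl4 livers, against 1847, 2442 and 2746 CPM in oil livers. The ranges overlapped over most of their length, and 3 of 6 CCl4 livers were below every oil liver. The mean was 1943 ± 357 CPM in CCl4 livers and 2311 ± 372 CPM in oil livers (log2 fold change -0.25 ± 0.15, 95% interval -0.58 to 0.08, adjusted p = 0.189). CCl4 replicate 4 stood apart at 2651 CPM, and without it the gene passed at the edge of the threshold (log2 fold change -0.36, adjusted p = 0.0494, and 0.0494 to 0.487 over all alternatives).

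Ces1b (gene ID 382044, 93056725 to 93080017, 14 exons) is the nearest copy of Ces1c. Its CCl4 levels of 94.4, 146 and 188 CPM (lowest, median and highest) overlapped the 78.3, 114 and 138 CPM of oil livers. The change did not pass (log2 fold change 0.34 ± 0.18, 95% interval -0.07 to 0.75, adjusted p = 0.151). The 3 CCl4 livers above all oil livers were replicates 2, 4 and 6, at 171, 188 and 169 CPM, while replicates 1, 3 and 5 had 123, 116 and 94.4 CPM. These 3 libraries were also those richest in short transcripts: the slope of log2 CPM on log10 transcript length was -0.78, -0.64 and -1.24 in them and -0.01 to 0.59 in the other 3. In oil libraries it was -0.46 to 0.89. When the slope entered the model, Ces1b had a log2 fold change of 0.05 (adjusted p = 0.829). The slope itself tended to be lower in CCl4 libraries, and its part in the levels of Ces1b was not tested.

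The Ces2 members went in opposite directions. Ces2a (gene ID 102022, 104734003 to 104741634, 12 exons), a glyceride and drug hydrolase of the endoplasmic reticulum that is induced through the pregnane X receptor in mice, had 108, 176 and 261 CPM in CCl4 livers, against 341, 407 and 487 CPM in oil livers (lowest, median and highest). The groups did not overlap, and Ces2a was 2.37-fold lower (log2 fold change -1.24 ± 0.20, adjusted p = 0.000272). Ces2e (gene ID 234673, 104926260 to 104934672, 12 exons), an esterase of liver and intestine, had 201, 224 and 267 CPM in CCl4 livers, against 115, 173 and 197 CPM in oil livers. All 6 CCl4 livers were higher than the highest oil liver, by a small margin, since the lowest of them stood at 201 CPM and the highest oil liver at 197. The rise was 1.38-fold (log2 fold change 0.46 ± 0.14, adjusted p = 0.0197). It passed in each of 21 alternatives, with adjusted p from 0.00742 to 0.0468.

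Of intestinal epithelial markers, Sis had no count, Lct had 10 counts in all libraries together and Vil1, which did not exceed 0.635 CPM in CCl4 livers or 0.299 CPM in oil livers, rose (adjusted p = 0.0329). Fabp2 was at 55.8 ± 28.7 CPM in CCl4 livers and 53.4 ± 13.6 CPM in oil livers and did not pass. Apoa4, which liver also makes, rose to 843 ± 483 CPM in CCl4 livers, against 80.8 ± 9.37 CPM in oil livers (10.4-fold). The summed level of the 5 genes, mostly Apoa4, ran from 488 to 1897 CPM in CCl4 livers and from 116 to 170 CPM in oil livers, and its part in the rise of Ces2e was not tested.

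Both Ces3 genes, esterases found chiefly in liver, fell. Ces3a (gene ID 382053, 105048576 to 105061928, 13 exons) had 459, 583 and 831 CPM in CCl4 livers, against 953, 1533 and 1756 CPM in oil livers (lowest, median and highest). Every CCl4 liver lay below every oil liver, and the gene was 2.47-fold lower (log2 fold change -1.30 ± 0.18, adjusted p = 8.28e-05). Ces3b (gene ID 13909, 105083733 to 105093929, 13 exons) showed the largest change of the 10, with 34.6, 51.2 and 117 CPM in CCl4 livers and 222, 312 and 383 CPM in oil livers. The groups lay far apart, and Ces3b was 5.14-fold lower (log2 fold change -2.36 ± 0.28, adjusted p = 1.78e-05). Its CCl4 livers also varied most of all, with a coefficient of variation of 50.2%, and CCl4 replicate 1 at 117 CPM was the highest of them. Since Ces3a and Ces3b are 95.3% identical, their separate values carry the doubt of shared reads.

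**Figure D2:**
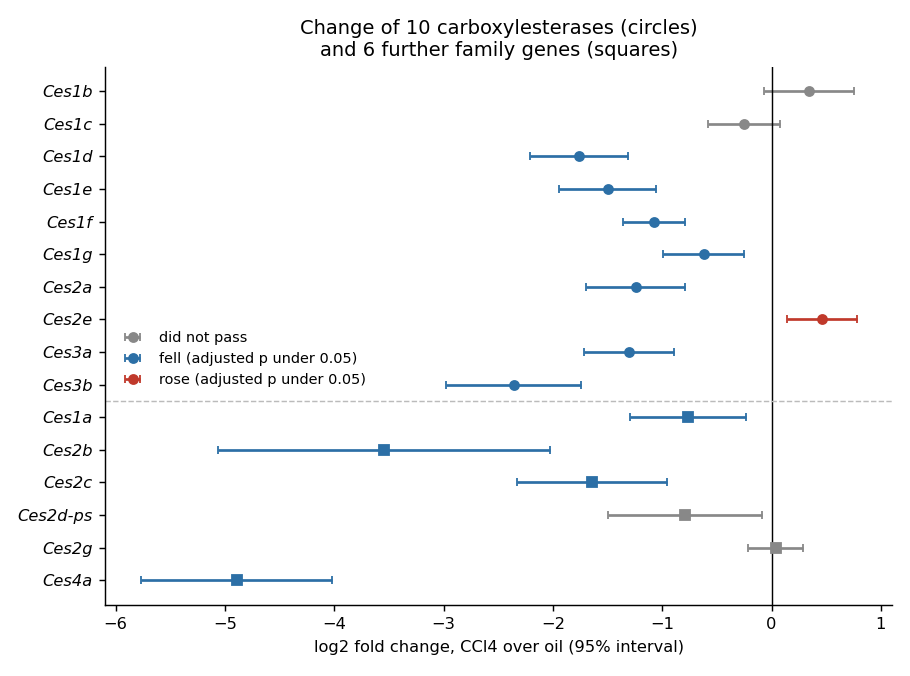
Log2 fold change, CCl4 over oil (x axis, 0 marked by a line), of the 10 carboxylesterases (circles) and the 6 further family genes that were tested (squares); bars are 95% intervals without adjustment for the number of genes, from edgeR's standard error. Values run from -4.89 for Ces4a to 0.46 for Ces2e, and Ces2e is the only gene drawn as risen.

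Of the other 10 family genes all had a count but 6 passed the filter on low counts. Of these 4 fell, none rose and 2 did not pass, where 18.4% of all tested genes fell and 20.6% rose. Ces2c, an acylcarnitine hydrolase and the most counted of those that fell, was 3.13-fold lower at 6.52 ± 2.70 CPM in CCl4 livers, against 20.4 ± 7.63 CPM in oil livers (adjusted p = 0.000815). It shares 38.2% of its words of 50 bases with the pseudogene Ces2d-ps, which did not pass (0.245 ± 0.0746 CPM in CCl4 livers, 0.421 ± 0.178 CPM in oil livers, adjusted p = 0.0592). Ces4a averaged 0.112 ± 0.0587 CPM in CCl4 livers and 3.39 ± 1.41 CPM in oil livers, the largest fall of the family genes tested (log2 fold change -4.89 ± 0.39, adjusted p = 8.33e-07). Its CCl4 libraries held 2 to 15 counts each, and 3 counts correspond to 0.0359 to 0.0549 CPM there. The counts that took Ces4a past the filter came from oil libraries, which held 71 to 368 each. A gene this low in CCl4 livers could enter the test only if it was higher in oil, so the size of its fall is a description.

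Ces2b was lower at 0.0837 ± 0.0568 CPM in CCl4 livers, against 1.02 ± 0.865 CPM in oil livers (adjusted p = 0.000984), though its CCl4 libraries also held 2 to 15 counts each, its oil livers ran from 0.130 to 1.98 CPM and the groups overlapped. Its log2 fold change was -3.55, and -2.29 with the length slope in the model. Ces1a, at 0.708 ± 0.135 CPM in CCl4 livers and 1.20 ± 0.358 CPM in oil livers, also fell (adjusted p = 0.0202). Ces2g, the best expressed of the 10, was at 46.7 ± 4.89 CPM in CCl4 livers and 45.5 ± 5.06 CPM in oil livers (log2 fold change 0.04, 95% interval -0.21 to 0.29). Its direction turned under 5 of 21 alternatives. Ces1h, Ces2f, Ces2h and Ces5a were too low for the filter. Among them Ces1h had 64 counts in CCl4 libraries, 7 to 16 in each, against 8 in oil libraries, 0 to 3 in each, and with no filter it was called higher in CCl4 (log2 fold change 2.43, adjusted p = 0.00188). In that fit Ces2h, with 34 counts in CCl4 libraries and 72 in oil libraries, was called lower (adjusted p = 0.0339), and Ces2f and Ces5a, with 5 and 0 counts in CCl4 libraries against 13 and 2 in oil libraries, did not pass (adjusted p = 0.180 and 0.206).

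The summed level of the 10 carboxylesterases was 3266 to 5074 CPM in CCl4 livers, with a median of 3732, and 5648 to 7562 CPM in oil livers, with a median of 6714. No CCl4 liver reached an oil liver. The mean was 3897 ± 640 CPM in CCl4 livers and 6670 ± 826 CPM in oil livers, a ratio of 0.584. Without Ces1c, the other 9 genes summed to 1954 ± 337 CPM in CCl4 livers and 4359 ± 672 CPM in oil livers, a ratio of 0.448. The division of the sum differed between the groups. Ces1c took 44.2% to 52.4% of it in CCl4 livers and 28.5% to 43.3% in oil livers, without overlap. The share of Ces2e was 5.21% to 6.53% in CCl4 livers, against 1.97% to 3.02% in oil livers. Ces1d took 7.06 ± 0.742% in CCl4 livers and 14.0 ± 1.86% in oil livers, and Ces3b 1.54 ± 0.745% in CCl4 livers and 4.68 ± 0.950% in oil livers. The share of Ces1g was 4.44 ± 0.592% in CCl4 livers, and 4.02 ± 0.516% in oil livers.

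**Figure D3:**
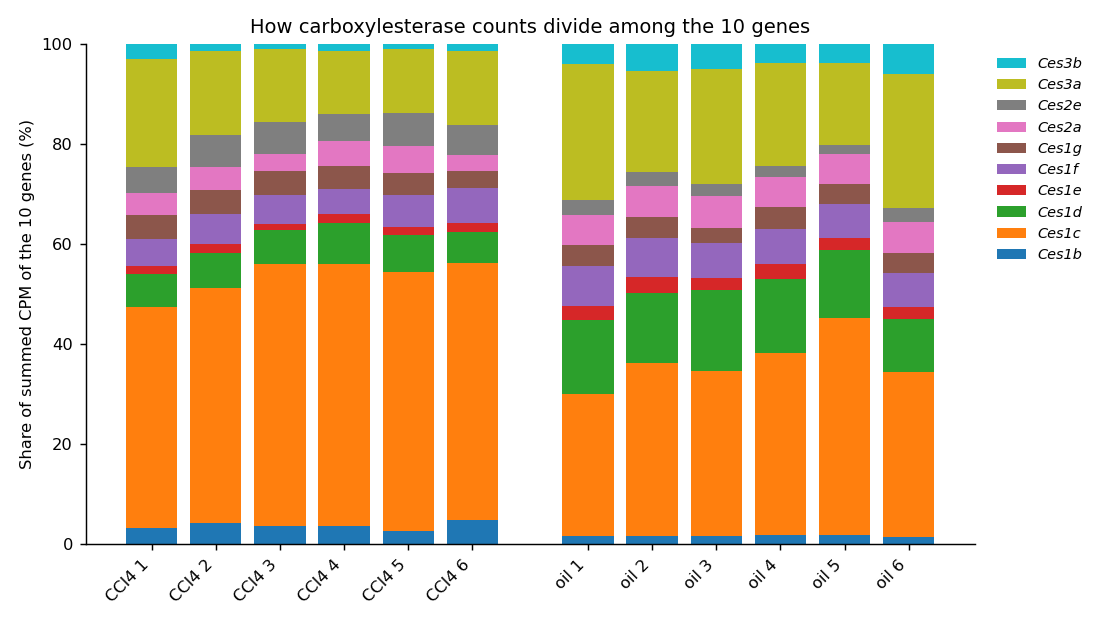
Share of the summed CPM of the 10 carboxylesterases held by each gene (y axis, percent), 1 bar per liver, CCl4 livers on the left and oil livers on the right. The band of Ces1c is wider in every CCl4 liver (at least 44.2%) than in any oil liver (at most 43.3%), and those of Ces1d and Ces3b are narrower.

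To rank the genes against each other, CPM was divided by the length of the longest coding transcript (1828 bases for Ces1c to 2699 for Ces2e). Ces1c led in both groups, with 1063 ± 195 CPM per kilobase in CCl4 livers and 1264 ± 203 in oil livers, followed by Ces3a with 295 ± 70.7 in CCl4 livers and 726 ± 144 in oil livers. Ces1d, Ces1f and Ces2a came next in that order in both groups. Below them the order differed. In CCl4 livers Ces2e (85.7 CPM per kilobase), Ces1b (73.1) and Ces1g (72.8) followed, and Ces1e (31.3) and Ces3b (25.2) were last. In oil livers the sequence was Ces3b (129 CPM per kilobase), Ces1g (112), Ces1e (88.5), Ces2e (62.3) and Ces1b (57.6). Ces3b was thus number 10 in CCl4 and number 6 in oil. Ces2e stood above Ces1e and Ces3b in all CCl4 livers and below them in all oil livers. Neighbours whose ranges over livers did not overlap in CCl4 were Ces1c and Ces3a, Ces3a and Ces1d, and Ces1g and Ces1e. In oil they were Ces1c and Ces3a, Ces1d and Ces1f, and Ces2a and Ces3b. The ranges of all other neighbours overlapped.

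**Figure D4:**
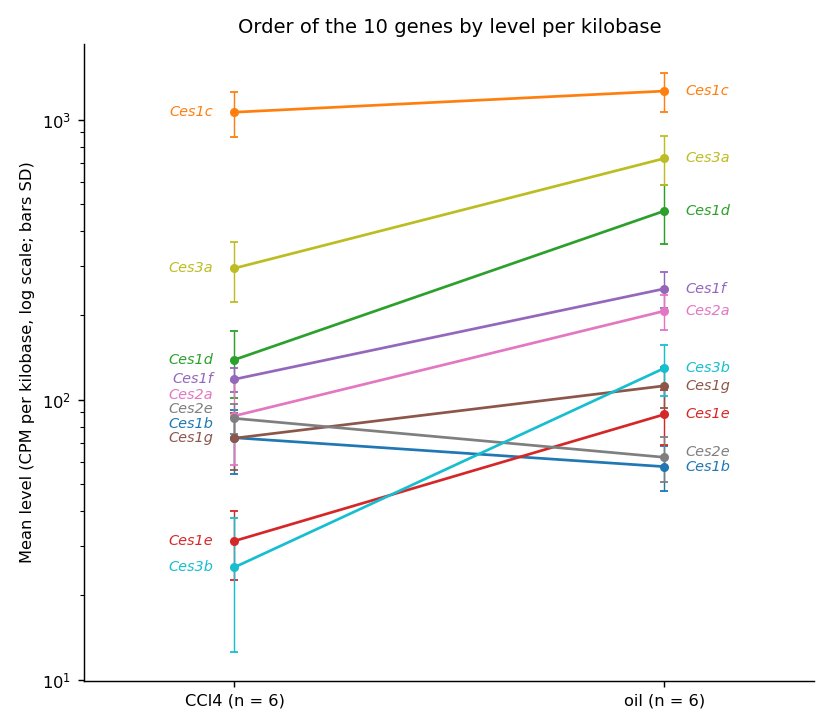
Mean level per kilobase of transcript (y axis, log scale, CPM per kilobase; bars are SD, n = 6 livers each) of the 10 carboxylesterases in CCl4 livers (left) and oil livers (right), each gene joined by a line. Ces1c is highest in both (1063 CPM per kilobase in CCl4, 1264 in oil), while the line of Ces3b (25.2 in CCl4, 129 in oil) crosses 4 others.

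Whether neighbours changed by unequal amounts was tested on the log2 ratio of their counts within each liver, which does not depend on library scaling, in 7 pairs of neighbours by name. In a two-sided exact permutation test with 6 livers a side, 6 of 7 ratios passed after adjustment over the 7. The ratio of Ces2a to Ces2e was 0.506 to 0.975 in CCl4 livers and 1.97 to 2.97 in oil livers, so that Ces2e had more counts than Ces2a in every CCl4 liver and fewer in every oil liver. On the log2 scale it averaged -0.49 ± 0.38 in CCl4 livers and 1.28 ± 0.23 in oil livers (difference -1.77, exact permutation p = 0.00216, the smallest that 6 against 6 can give, adjusted p = 0.00505). Every CCl4 liver was already below every oil liver for Ces2a and above every oil liver for Ces2e. The ratio of these 2 genes therefore had to separate the groups, and its p adds no support. The ratio of Ces3a to Ces3b was 7.09 to 13.7 in CCl4 livers and 3.78 to 6.63 in oil livers (log2 difference 1.15, exact permutation p = 0.00216, adjusted p = 0.00505). By the counts as given, Ces3b therefore fell by more than its near copy, though these 2 genes may share reads, which was not measured.

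Ces1c against Ces1d also separated the groups, at 6.29 to 8.40 in CCl4 livers and 1.94 to 3.17 in oil livers (log2 difference 1.51, exact permutation p = 0.00216, adjusted p = 0.00505). The ratio of Ces1b to Ces1c overlapped between groups but was higher in CCl4 (log2 difference 0.57, exact permutation p = 0.00649, adjusted p = 0.0114). It was 0.0504 to 0.0939 in CCl4 livers and 0.0421 to 0.0576 in oil livers, and the 2 genes of this pair may share reads, which was not measured. The log2 ratio was highest in CCl4 replicates 6 (-3.41) and 2 (-3.48), the libraries with the lowest length slopes (-1.24 and -0.78). The next lowest slopes, -0.64 in CCl4 replicate 4 and -0.46 in oil replicate 5, went with log2 ratios of -3.82 and -4.50. The part of the length slope in the Ces1b to Ces1c ratio was not tested. Ces1e against Ces1f (log2 difference -0.45, exact permutation adjusted p = 0.0152) and Ces1f against Ces1g (-0.43, exact permutation adjusted p = 0.0429) were lower in CCl4. The Ces1f to Ces1g ratio did not pass without any of CCl4 replicates 1, 2, 3 and 4 or any of the 6 oil replicates (exact permutation adjusted p from 0.0505 to 0.0859). Ces1d against Ces1e did not pass (log2 difference -0.25, 2.11 ± 0.27 in CCl4 livers and 2.36 ± 0.26 in oil livers, exact permutation p = 0.136, adjusted p = 0.136).

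**Figure D5:**
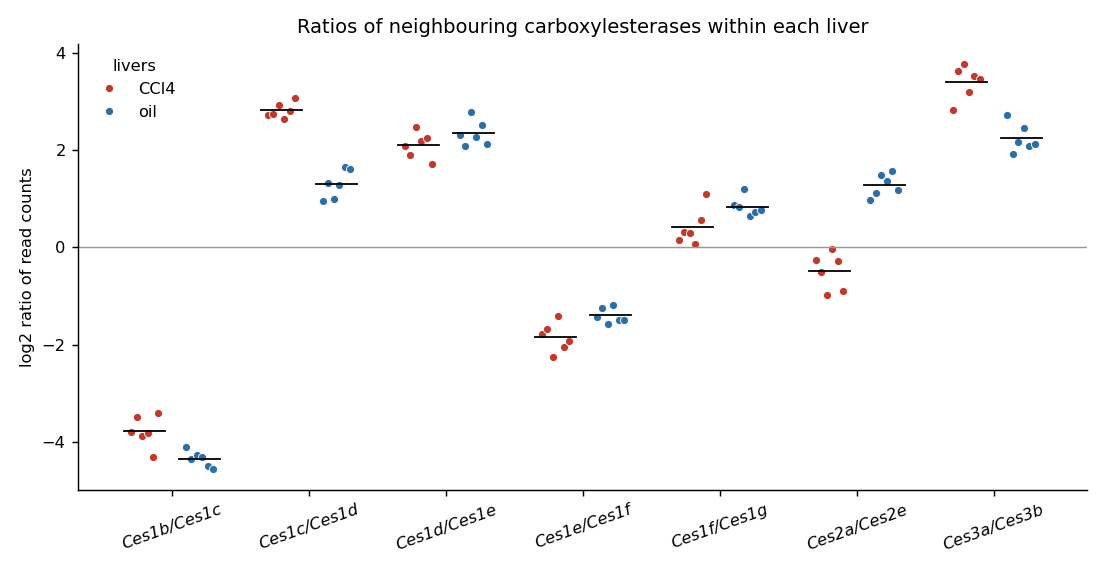
Log2 ratio of the read counts of 7 pairs of carboxylesterases that are neighbours by name (y axis). Each of 6 CCl4 livers (red, left of each pair) and 6 oil livers (blue, right) is a point, and lines are group means. The groups do not overlap for Ces1c/Ces1d, Ces2a/Ces2e and Ces3a/Ces3b, and only Ces2a/Ces2e lies on opposite sides of 0, at -0.98 to -0.04 in CCl4 livers and 0.98 to 1.57 in oil livers.

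The livers differed among themselves in a way that ran across the family. CCl4 replicate 4 had the highest level of 7 of the 10 genes among CCl4 livers and the lowest of none. It also had the highest sum of 8 hepatocyte secretory genes (189090 CPM, against 138930 to 166080 in the other 5 CCl4 livers) and the lowest sum of 7 activated stellate cell genes (420 CPM, against 462 to 723). Among oil livers replicate 6 was lowest for 5 genes and replicate 5 for 4. With the same markers, and where 18.4% of all tested genes fell and 20.6% rose, the groups stood as follows. The hepatocyte secretory genes rose in 2 and fell in 1 of 8, and their sum was 138930 to 189090 CPM in CCl4 livers and 116430 to 167620 CPM in oil livers. Alb was at 77063 ± 15611 CPM in CCl4 livers and 78023 ± 14782 CPM in oil livers. Pericentral genes fell in 9 of 10 (1570 to 2724 CPM in CCl4 livers, 9215 to 11002 CPM in oil livers), with Cyp2e1, the P450 enzyme that activates CCl4, 12.2-fold lower. Periportal genes fell in 5 and rose in 2 of 10. Activated stellate genes rose in 7 of 7 (420 to 723 CPM in CCl4 livers, 49.2 to 119 CPM in oil livers), and macrophage genes in 6 of 7 (421 to 622 CPM in CCl4 livers, 146 to 206 CPM in oil livers). The part of these shifts in the fall of the carboxylesterases was not tested.

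Total counts per library were 53602695 to 69203292 in CCl4 and 43027778 to 70375852 in oil. Markers of other tissues were raised in some libraries. The sum of 5 pancreatic acinar genes was 278 CPM in CCl4 replicate 5, 66.4 in CCl4 replicate 3 and 26.3 in oil replicate 1, and at most 1.79 CPM elsewhere. Skeletal muscle genes summed to 241 CPM in CCl4 replicate 1 and 44.2 CPM in CCl4 replicate 3, and to at most 1.43 CPM elsewhere, while kidney tubule genes did not exceed 0.0309 CPM. The counts of 7 fallen genes and 1 risen gene stayed the same when any of these libraries was left out.

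Of 23 other tested hydrolases of esters, lipids and epoxides 9 fell and 3 rose, with a median log2 fold change of -0.49. In the same fit 18.4% of all tested genes fell and 20.6% rose. When each library's length slope entered the model, 16 of the 23 fell and 3 rose, against 3497 and 3452 of all 16032 tested genes. Afmid, kynurenine formamidase, was 4.94-fold lower at 35.3 ± 6.86 CPM in CCl4 livers, against 174 ± 34.1 CPM in oil livers (adjusted p = 5.36e-07). Ephx2, soluble epoxide hydrolase, was 3.08-fold lower (adjusted p = 5.05e-06), and Abhd6, a monoacylglycerol lipase, 2.26-fold lower (adjusted p = 4.19e-06). Lipc, hepatic lipase, was 1.66-fold lower (adjusted p = 0.00267). The risers were Lpl, lipoprotein lipase, at 127 ± 13.8 CPM in CCl4 livers and 32.8 ± 5.27 CPM in oil livers (adjusted p = 2.03e-07), Pnpla3, a lipid droplet hydrolase, 7.95-fold higher (adjusted p = 7.45e-05; 2.99 on the log2 scale, or 3.60 in the model that holds the length slope), and Esd, which splits S-formylglutathione, 1.41-fold higher (adjusted p = 0.0296). Esd passed in 13 of 21 alternatives (adjusted p up to 0.135).

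Aadac, an endoplasmic reticulum deacetylase that overlaps the carboxylesterases in substrates, was at 408 ± 116 CPM in CCl4 livers and 578 ± 104 CPM in oil livers and did not pass (adjusted p = 0.0541). It passed in 5 of 21 alternatives (adjusted p from 0.000297 to 0.134). Pnpla2, adipose triglyceride lipase, was at 44.2 ± 14.5 CPM in CCl4 livers and 63.3 ± 8.42 CPM in oil livers (adjusted p = 0.0541) and passed in 8 of 21 (0.0194 to 0.149). Ephx1, microsomal epoxide hydrolase, was at 428 ± 146 CPM in CCl4 livers and 565 ± 95.9 CPM in oil livers (adjusted p = 0.147). It passed with limma-voom only (adjusted p = 0.0284, and 0.0284 to 0.491 over alternatives). Of 10 genes of triglyceride synthesis and lipoprotein assembly, the route that Ces1d feeds, 4 fell and none rose (median log2 fold change -0.23). Over all tested genes 39.0% were called, 18.4% as falls and 20.6% as rises. Dgat2 fell 1.85-fold (adjusted p = 1.90e-05), Apob 1.62-fold (adjusted p = 0.00161) and Mttp, the triglyceride transfer protein, 1.54-fold (adjusted p = 0.00141). The other was Mia2, a factor of protein export from the endoplasmic reticulum, named after its value was seen (2.70-fold lower, adjusted p = 0.0126).

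Transcription factors known to act on carboxylesterase genes were mostly lower. Of 12, 10 fell, none rose and 2 did not pass, with a median log2 fold change of -0.67. By comparison, 18.4% of all tested genes fell and 20.6% rose. The part of these factors in the changes of the carboxylesterases was not tested. Nr1i2, the pregnane X receptor, was at 43.2 ± 2.19 CPM in CCl4 livers and 85.2 ± 14.3 CPM in oil livers, without overlap (1.97-fold lower, adjusted p = 3.10e-05). Hnf4a, a master factor of hepatocytes, was 2.08-fold lower (328 ± 90.7 CPM in CCl4 livers, 681 ± 130 CPM in oil livers, adjusted p = 0.000681). Stat5b, which carries the growth hormone signal, was 2.12-fold lower (adjusted p = 9.88e-05). Smaller falls were found for Nr1i3, the constitutive androstane receptor (1.39-fold), its partner Rxra (1.63-fold), Ppara (1.55-fold), the aryl hydrocarbon receptor Ahr (1.67-fold), Cebpa (1.32-fold) and the glucocorticoid receptor Nr3c1 (1.33-fold), with adjusted p from 0.00990 to 0.0445. Of these Rxra, Ahr, Cebpa and Nr3c1 passed in 16, 20, 8 and 20 of 21 alternatives in that order. Nr1h4, the bile acid receptor, was at 109 ± 20.9 CPM in CCl4 livers and 121 ± 13.2 CPM in oil livers (adjusted p = 0.398). Nfe2l2, the NRF2 gene, was at 102 ± 11.1 CPM in CCl4 livers and 84.2 ± 12.4 CPM in oil livers (adjusted p = 0.0778). With upper-quartile scaling, which moved the median of all genes to 0.13, 6 of the 12 fell and Nfe2l2 rose.

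The genes whose levels followed each carboxylesterase most closely over the 12 livers were sought among 3754 genes whose log2 CPM averaged 5 or more, by the root mean square distance between log2 CPM profiles centred on oil. For Ces1d the nearest was Ephx2 (distance 0.22), followed by the P450 gene Cyp2c50 (0.25) and the bile acid transporter Slc10a1 (0.27), and Ephx2 (0.22) was also near Ces1e, with Suox and Hpd (0.22 each). The profile of Ces2a was nearest to those of Cyp2c29 (0.19), Clcn2 (0.23) and Acsm5 (0.24), and Ces3a lay near Aadat (0.16), Srd5a1 (0.17) and Cyp2d9 (0.18). Ces1g had Pipox (0.13), Lipc (0.14) and Rnf103 (0.17) as neighbours, and Ces2e had Mcl1 (0.17), Gm2a (0.18) and Ypel5 (0.19). Ces3b had no neighbour closer than Aox3 (0.34), followed by Acsl1 (0.35) and Dlec1 (0.39). For Ces1f they were Mettl7b (0.17), Me1 (0.17) and Klkb1 (0.18), for Ces1c Scamp1 (0.11), Apoh (0.11) and Cdadc1 (0.13), and for Ces1b Gamt (0.14), Fahd1 (0.16) and Sem1 (0.17). The 12 points share their libraries, depth and treatment contrast, so these distances are a description.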

How the data were processed

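Gene-level read counts of 12 livers were analysed. Per the labels' protocols, RNA was purified with RNeasy, and a TruSeq stranded kit for total RNA served for library construction. The authors deposited whole-number counts per gene, without normalisation. The build was GRCm38, per the submitters' processing notes. The sources used here do not name the aligner or counting tool, nor say how strand and reads matching several genes were handled. All 12 columns of the series' table equalled the sample files. Names came from RefSeq (31049 of 36528 IDs) and GENCODE M21 (77).

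The test was edgeR's robust quasi-likelihood fit (edgeR 4.0.16 under R 4.3.3) after filterByExpr and TMM, with Benjamini-Hochberg adjustment over 16032 genes and a threshold of 0.05. CPM are counts per 1000000 after TMM scaling, and log2 CPM used a prior count of 2. Standard errors are the fold change divided by the square root of F, and 95% intervals use 10 residual degrees of freedom. Ratios within a liver (prior count 2) were compared by exact permutation with scipy 1.17.1. Sequences were compared with Biopython 1.88. The alternatives were DESeq2 1.42.0, limma-voom (limma 3.58.1), 3 other scalings, 2 other filters, a model term for each library's length slope, and the omission of each library in turn. Leaving out both libraries richest in short transcripts (CCl4 replicate 6 and oil replicate 5) was added after seeing the data. The 10 genes and the lists were chosen with earlier results of these data known. The genes named are all carboxylesterases, all regulators but 1 (counted, but with 1 of the motifs searched not reported here), the called genes with the 3 smallest p in each direction of the other 2 lists, a few set by name, and the 3 nearest profiles of each carboxylesterase.

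No 2 replicates matched within sampling noise (the lowest chi-square per gene over 30 pairs was 53.4). In counts simulated for CCl4 against oil over 16032 genes, 11 of 99 genes changed 1.5-fold, 52 of 100 changed 2-fold and 1 unchanged gene were called. All other tested genes were left unchanged there, whereas 39.0% of the tested genes were called in the data. The adjustment was therefore stricter in the simulation, and these counts do not give the share of changes missed in the data. Library sizes after TMM scaling, 38447000 to 83541000, put 3 counts at 0.0359 to 0.0780 CPM. Protein sequences were not used here.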

Additional observations from a re-analysis of the deposited data

Results flagged for a closer look

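Of 48 groups of 6 livers examined (10 carboxylesterases, 7 ratios, the summed level and the 6 further family genes tested in each treatment), 2 held a liver far from the others. That is no more than the 1 in 20 that chance gives, and the groups share genes and livers, so they are not independent. In both it was CCl4 replicate 4. Its Ces1c level of 2651 CPM lay far above the next CCl4 liver at 1912 CPM, while the lowest had 1703 CPM. Its Ces1d level of 421.8 CPM lay above the next at 282.9 CPM, with the lowest at 215.1 CPM. Without this liver Ces1c was called lower in CCl4, as given above, and the log2 fold change of Ces1d was -1.92. The sum of hepatocyte secretory genes was also highest in this liver (189090 CPM), and its part in these values was not tested.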

How the results depend on the processing

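The counts of 7 fallen carboxylesterases and 1 risen were the same in 20 of 21 alternatives, and without CCl4 replicate 4 there were 8 and 1. The log2 fold changes of the 7 fallen genes stayed negative in all 21, from -2.68 to -0.51. The log2 ratio of the summed levels (-0.78) ran from -0.865 to -0.729 when 1 liver was left out, and the number of ratios past the threshold from 5 to 6. Among other ester hydrolases 16 genes fell with the length slope as a covariate, against 9. Of the regulators 6 fell with upper-quartile scaling, against 10, and 1 rose under that scaling and without oil replicate 1, against 0. Among genes of lipoprotein assembly 1 rose, against 0, with upper-quartile scaling, the filter at 50 counts, DESeq2, limma-voom, without oil replicate 5 and without both libraries richest in short transcripts. With no filter 1 further carboxylesterase rose, against 0. Over all genes the share of rises among calls was 52.8%, and 67.3% with upper-quartile scaling. The direction of Ces2g turned with limma-voom (-0.0039) and in the range of -0.0245 to 0.0816 when 1 liver was left out. That of Alb (-0.018) turned with upper-quartile scaling (0.097), the filter at 50 counts (0.0055), the length slope (0.047) and without both libraries richest in short transcripts (0.033), and ran over -0.0985 to 0.065 when 1 liver was left out. The causes were not tested. No paired analysis was possible because the labels give the 2 groups no shared replicate numbers. Depth limits what can be said of Ces1h, Ces2f, Ces2h and Ces5a.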
